A study of Saccharomyces cerevisiae with 4 samples.

Results

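The p24 proteins are type I membrane proteins that cycle between the endoplasmic reticulum (ER) and the Golgi. They help to load secretory proteins, above all those that carry a glycosylphosphatidylinositol (GPI) anchor, into COPII vesicles for export from the ER, and they return to the ER in COPI vesicles. In *S. cerevisiae* the family is known for a hetero-oligomeric complex of Emp24, Erv25, Erp1 and Erp2, while the roles of Erp3, Erp4, Erp5 and Erp6 are less well described. Loss of *EMP24* is known to slow the export of the cell wall enzyme Gas1, to relieve the need for the COPII coat subunit Sec13 and to induce the unfolded protein response.

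All 8 genes of the family, *EMP24* (YGL200C), *ERV25* (YML012W), *ERP1* (YAR002C-A), *ERP2* (YAL007C), *ERP3* (YDL018C), *ERP4* (YOR016C), *ERP5* (YHR110W) and *ERP6* (YGL002W), were examined, among 4128 genes of the series that passed the level filter (averaged over the 4 arrays, log2(600) or more, which is 9.23). Members were selected by gene symbol, and the probe set of each gene was chosen by its mean level over the 4 arrays. That choice decided nothing here, since each of the 8 genes had 1 probe set, and 0 of these probe sets were marked as shared between genes. The family was picked with earlier results of these arrays known, so its values describe these cultures and are not independent evidence for a change in the family.

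Total RNA was taken from mid-log cultures of W303-1A, a haploid laboratory strain of mating type a that carries *ura3-1*, *trp1-1* and *ade2-1* together with *can1-100* and double alleles of *his3* (mutations 11 and 15) and *leu2* (mutations 3 and 112). WT stands for 1 array, from a culture that carried pCM189, a centromeric plasmid, without insert. RECQL5 stands for 3 arrays, described as biological replicates, from cultures with pCM189::RECQL5-FLAG, in which the human DNA helicase RECQL5 was made from a tet promoter. Both groups grew in minimal glucose medium (2%) without uracil. No RECQL5 signal was analysed here. Levels are RMA log2 values, 1 unit of which is a doubling, and probe sets differ in brightness, so the p24 genes are compared by their changes and not ordered by level. The 6 mating type a markers fixed for the check read 10.99 to 13.68 and the 4 alpha markers 5.75 to 9.42, the highest of these being the agglutinin gene *SAG1*. RECQL5 arrays resembled each other (Pearson's r across tested genes 0.989 to 0.996) more than they resembled WT (0.917 to 0.931).

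The 4 genes of the Emp24 complex and *ERP5* read lower in all 3 RECQL5 cultures than in WT, as did 40.6% of all tested genes. By the adjusted p the 4 complex genes were lower, and none of the other 4 genes was. *ERP2* was the only member that fell by the call rule, with a WT level 1.504-fold that of RECQL5 (log2 change -0.59 ± 0.09 SE), right at the 1.5-fold limit. *ERP1*, *EMP24* and *ERV25* read lower by 0.53, 0.48 and 0.28 on the log2 scale. *ERP3* and *ERP4* read higher by 0.17 and 0.23, *ERP5* differed by -0.07 and *ERP6* by 0.00. The rule required a change of 1.5-fold or more together with an adjusted p (limma, Benjamini-Hochberg over the 4128 genes) no higher than 0.1. By this rule 1 of 8 members was lower, beside 7.80% of all tested genes, and 0 of 8 were higher, beside 9.59%. The share of 1 in 8 rests on 1 gene and is near the background. By the adjusted p alone 4 of 8 members were lower (background 29.2%) and 2 of 8 higher (background 34.6%). With WT measured once, the fit sets that array against the spread among RECQL5 arrays, moderated over all tested genes. It assumes that WT varies as the RECQL5 arrays do, so a trait of the single WT culture cannot be told apart from an effect of RECQL5. For a single gene, 3 arrays against 1 allow no exact permutation p below 0.25 (one-sided).

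*EMP24* encodes the beta member of the family and is the gene from which the complex takes its name. It read 12.64 on the WT array and 12.16 on each of RECQL5 1, 2 and 3. The RECQL5 arrays lay below WT and were almost identical, with an SD of 0.00236 against a median SD of 0.0607 over tested genes. The change was -0.48 ± 0.06 SE (95% interval -0.63 to -0.33, adjusted p = 0.0023, limma), which puts the WT level at 1.40-fold that of RECQL5. It stayed short of the 1.5-fold limit.

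*ERV25* encodes the delta member, the closest partner of Emp24. It read 12.71 in WT and 12.43, 12.42 and 12.46 in RECQL5 1, 2 and 3. The RECQL5 arrays again lay together below WT, at the smallest distance of the 4 complex genes. The change was -0.28 ± 0.06 SE (95% interval -0.43 to -0.12, adjusted p = 0.0137, limma), or 1.21-fold.

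*ERP1* belongs to the alpha subfamily and *ERP2* to the gamma subfamily. *ERP1* read 12.74 in WT and 12.14, 12.24 and 12.26 in RECQL5 1, 2 and 3, so that the lowest RECQL5 value was that of replicate 1. Its change was -0.53 ± 0.07 SE (95% interval -0.71 to -0.34, adjusted p = 0.00336, limma), or 1.44-fold. *ERP2* read 12.33 in WT and 11.72, 11.85 and 11.67 in RECQL5 1, 2 and 3, here with replicate 2 highest. Its change had a 95% interval of -0.81 to -0.37 and an adjusted p of 0.00391 (limma). *ERP2* was no longer called when replicate 1 (-0.58) or replicate 3 (-0.55) of RECQL5 was left out or when cyclic loess was applied (-0.58), each time because the change slipped under 1.5-fold, while its adjusted p was at most 0.0208 under the 10 alternatives. *ERP1* lay just outside the limit and *ERP2* just inside it, and their intervals overlap almost entirely.

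**Figure D1:**
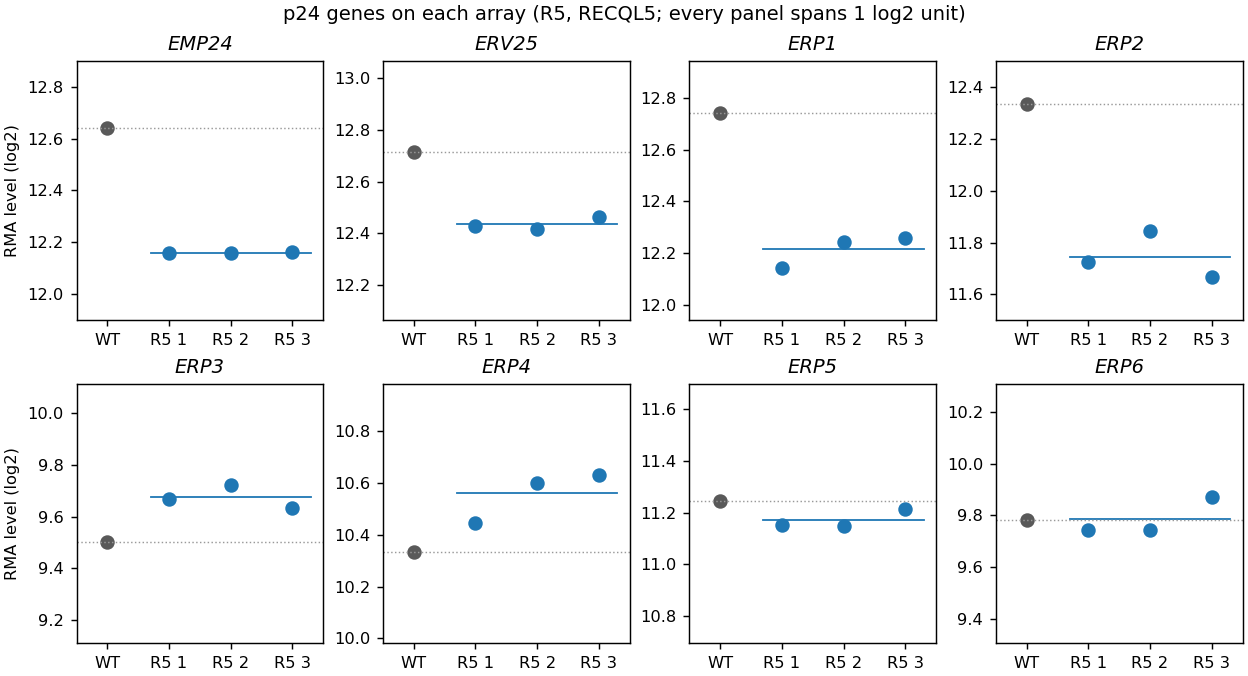
RMA log2 level (vertical axis) of each p24 gene on the WT array (grey) and on the 3 RECQL5 arrays (blue, with their mean as a line); the dotted line marks the WT level and every panel spans 1 log2 unit. *EMP24*, *ERV25*, *ERP1* and *ERP2* in the upper row lie below WT on all 3 arrays, while *ERP3* and *ERP4* lie above it and *ERP6* lies on both sides.

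*ERP3* and *ERP4* are the other gamma members. *ERP3* read 9.50 in WT and 9.67, 9.72 and 9.63 in RECQL5 1, 2 and 3. *ERP4* read 10.33 in WT and 10.45, 10.60 and 10.63. For both genes every RECQL5 array lay above WT, and the smallest gap was that of *ERP4* in replicate 1. The changes were 0.17 ± 0.07 SE for *ERP3* (95% interval 0.00 to 0.34, adjusted p = 0.0761) and 0.23 ± 0.09 SE for *ERP4* (95% interval 0.00 to 0.46, adjusted p = 0.0849), both by limma. The adjusted p exceeded 0.1 for *ERP3* without RECQL5 replicate 1 (0.131) and without replicate 2 (0.214), and for *ERP4* without replicate 2 (0.185). Over the 10 alternatives it exceeded 0.1 for *ERP3* in 5 and for *ERP4* in 4. The direction was the same under the 5 alternatives that could change the values.

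*ERP5* and *ERP6* are the other alpha members. *ERP5* read 11.24 in WT and 11.15, 11.15 and 11.21 in RECQL5 1, 2 and 3, so that all RECQL5 arrays lay below WT, replicate 3 by less than their SD of 0.0358. Its change was -0.07 ± 0.06 SE (95% interval -0.23 to 0.09, adjusted p = 0.387, limma). *ERP6* read 9.78 in WT and 9.74, 9.74 and 9.87 in RECQL5, and was the only member whose RECQL5 arrays lay on both sides of WT. Its change was 0.00 ± 0.08 SE (95% interval -0.19 to 0.20, adjusted p = 0.971, limma), and its sign turned with the normalization. If WT varies as the RECQL5 arrays do, the intervals of both genes exclude a 1.5-fold change in either direction. Those of *ERP3* and *ERP4* do so as well, on the same assumption.

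Counted by the arrays alone, all 3 RECQL5 arrays lay below WT for 5 of 8 members, where 40.6% of all tested genes did so, and above WT for 2 of 8, where 45.5% did. The median change over the 8 members was -0.18, beside 0.02 over all tested genes. A lower change than that of *ERP2* was found for 7.85% of tested genes, and the corresponding shares were 9.33% for *ERP1*, 10.8% for *EMP24* and 21.8% for *ERV25*. They were 39.4% for *ERP5*, 48.3% for *ERP6*, 64.5% for *ERP3* and 69.5% for *ERP4*. The complex genes thus lay toward the lower end of the distribution and the other members around or above its middle.

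**Figure D2:**
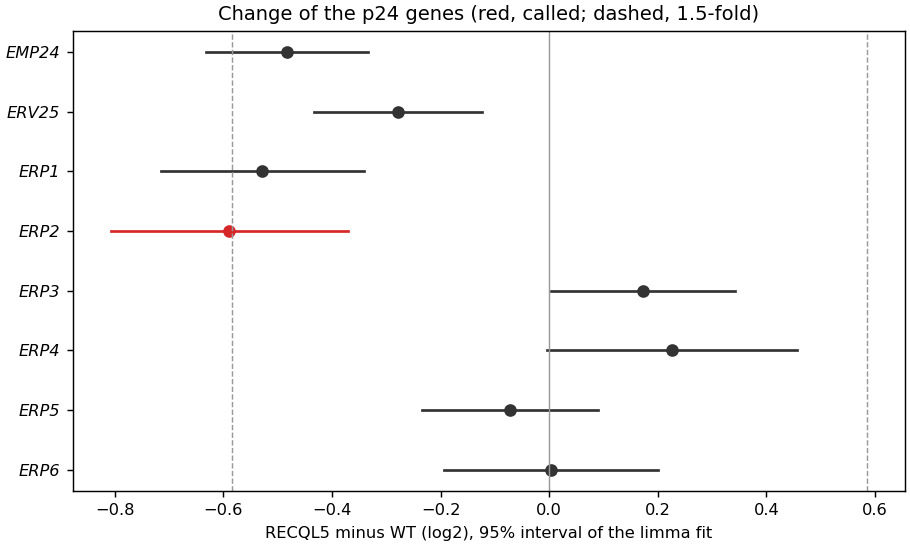
Log2 change (RECQL5 minus WT, horizontal axis) of each p24 gene with the 95% interval of the limma fit; *ERP2* (red) is the called gene and dashed lines mark 1.5-fold. The intervals of the 4 complex genes lie below 0, from -0.81 to -0.12, and those of *ERP4*, *ERP5* and *ERP6* include 0.

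Within each array the mean of *EMP24*, *ERV25*, *ERP1* and *ERP2* dropped relative to that of *ERP3*, *ERP4*, *ERP5* and *ERP6*. The mean log2 change was -0.47 for the complex genes and 0.08 for the others, a difference of -0.55. Centring each array cannot change that difference, which was -0.52 after cyclic loess. The groups also differed in level, with WT means of 12.6 for the complex genes and 10.2 for the others. Whether the changes depend on level was not tested. The grouping follows the known complex, but it was made with these values in view and is given as a description with no test. Genes of 1 subfamily did not all move together. In the alpha subfamily the changes ran from -0.53 (*ERP1*) to 0.00 (*ERP6*), and in the gamma subfamily from -0.59 (*ERP2*) to 0.23 (*ERP4*), a gap of 0.82. The changes of *ERP1* and *ERP2*, of different subfamilies, were 0.06 apart. Within subfamilies, *ERP3* and *ERP4* had similar changes (0.17 and 0.23), and so did *ERP5* and *ERP6* (-0.07 and 0.00).

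The members are alike in size, with coding lengths of 612 (*EMP24*) to 678 bp (*ERP3*), which correspond to 203 to 225 residues. They are spread over 6 chromosomes, with *ERP1* and *ERP2* both on chromosome I and *EMP24* and *ERP6* both on chromosome VII. The array design also carries fission yeast probe sets, which have no matching transcript in these cells. On each array the highest of 1746 such probe sets (6.45 to 6.77) read below the lowest p24 gene of that array (9.50 to 9.72), so all 8 genes were measured above this background. The fission yeast counterparts *emp24* (3.05 to 3.28) and *erv25* (3.41 to 3.85) read near the background median of 3.22.

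Of the 16 protein-coding genes directly before or after a member on its chromosome, 11 were tested, of which 4 fell and 1 rose, beside 7.80% and 9.59% of all tested genes. On both sides of *ERP2* the neighbour fell, *FUN14* (-0.83 ± 0.10 SE), a mitochondrial membrane protein gene that converges on it, and *SSA1* (-0.66 ± 0.14), a cytosolic Hsp70 gene upstream on the same strand. *SSA1* has a near-identical copy, *SSA2*, so its value is uncertain. Next to *ERV25*, *UBX2* (-0.89 ± 0.07), which encodes a membrane protein of ER-associated degradation, fell upstream on the same strand, while the convergent *RAD33* differed by 0.02. *EMP24* had the opposite case, since the replicative helicase gene *MCM6* downstream of it on the same strand rose (0.72 ± 0.07) and *YIP4* differed by -0.04. *MCM6* read 8.81 in WT, below the filter level, and was not tested where the filter applied to every array. *UBA4* (-0.63 ± 0.06), a tRNA thiolation gene downstream of *ERP5*, fell while *ERP5* itself did not pass the test. The neighbours of *ERP1*, *ERP3* and *ERP6* that were tested were not called. Members and the genes beside them differed in sign or in call in several places. Both neighbours of *ERP2* fell as it did, and *UBX2* read lower as *ERV25* did. Whether members move with their neighbours was not tested.

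The 3 tested genes whose pattern over the 4 arrays was most like that of *ERP2* were *RAM2* (Euclidean distance 0.0505 after subtraction of each gene's mean), *CUE5* (0.0659) and *SDH5* (0.0699), against a median distance of 0.574 over tested genes. *RAM2* encodes a subunit of the prenyltransferases, *CUE5* a ubiquitin-binding adaptor of autophagy and *SDH5* an assembly factor of succinate dehydrogenase. *RAM2* read 11.13 in WT and 10.53, 10.60 and 10.49 in RECQL5. *CUE5* read 11.27 and 10.65, 10.72 and 10.63, and *SDH5* read 11.05 and 10.49, 10.52 and 10.42. *RAM2* and *CUE5* were called lower while *SDH5* (-0.58) was not, although it was after cyclic loess (-0.62), after median centring (-0.59) and without RECQL5 replicate 2 (-0.60). Among the family, *EMP24* and *ERP1* were nearest to *ERP2*, at ranks 123 and 124 of the tested genes, so many genes outside the family were closer. The call of *RAM2* was lost without RECQL5 replicate 1 (-0.58) and without replicate 3 (-0.56).

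Genes that work with the p24 proteins were examined as lists, and these too were drawn up with earlier results of the arrays known. The COPII coat, which packs p24 proteins and their cargo for export, had 8 of 10 tested genes lower and 0 higher by the adjusted p alone, beside 29.2% and 34.6% of all tested genes (5 of 10 lower without RECQL5 replicate 2). Its median change was -0.25. *SEC12* (-0.68 ± 0.07 SE), which encodes the exchange factor that starts coat assembly, was the only gene called. That 1 of 10 is near the background, since 7.80% of all tested genes were lower and 9.59% higher by the call rule. *SEC12* read 10.27 in WT and 9.57, 9.64 and 9.55 in RECQL5 1, 2 and 3, with all RECQL5 arrays well below WT. A second gene of this list passed 1.5-fold after cyclic loess and after median centring. The COPI coat and its Arf machinery, which carry p24 proteins back to the ER, had 5 of 13 lower and 2 higher by the adjusted p alone (median -0.13). The Arf exchange factor gene *GEA1* rose (0.73 ± 0.07), from a WT level of 8.76 that was below the filter level, so that it passed the filter through the RECQL5 arrays and was not tested where the filter applied to every array. By the call rule no gene of this list fell and *GEA1* alone rose, beside 7.80% and 9.59% of all tested genes. After cyclic loess, after median centring and without RECQL5 replicate 3, 1 gene fell.

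Among 11 other cargo receptors and export factors of the ER, *ERV29* fell the most. Its product is the receptor for soluble cargo such as pro-alpha factor. *ERV29* read 12.64 in WT and 11.58, 11.61 and 11.70 in RECQL5 1, 2 and 3, a change of -1.01 ± 0.07 SE (adjusted p = 0.000904, limma) and a larger distance than that of any p24 gene. It was the only gene of the list called (background 7.80%), and 2 genes were called after cyclic loess, after median centring and without RECQL5 replicate 3, and also with no filter, which added 1 gene to the list. The median of that list was 0.09. Genes of retrieval from the Golgi (8 tested, median -0.03) had 0 called in either direction. So did genes of tethering and fusion between ER and Golgi (11 tested, median -0.03), beside 7.80% lower and 9.59% higher of all tested genes. By the adjusted p alone 2 were lower and 2 higher in the first list. In the second 3 were lower and 1 higher, beside 29.2% and 34.6% of all tested genes. The largest differences were -0.37 for *ERD2*, the HDEL receptor gene, and 0.32 for *SEC39* in the first list, and 0.40 for the tether gene *USO1* and -0.35 for the SNARE gene *BOS1* in the second.

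**Figure D3:**
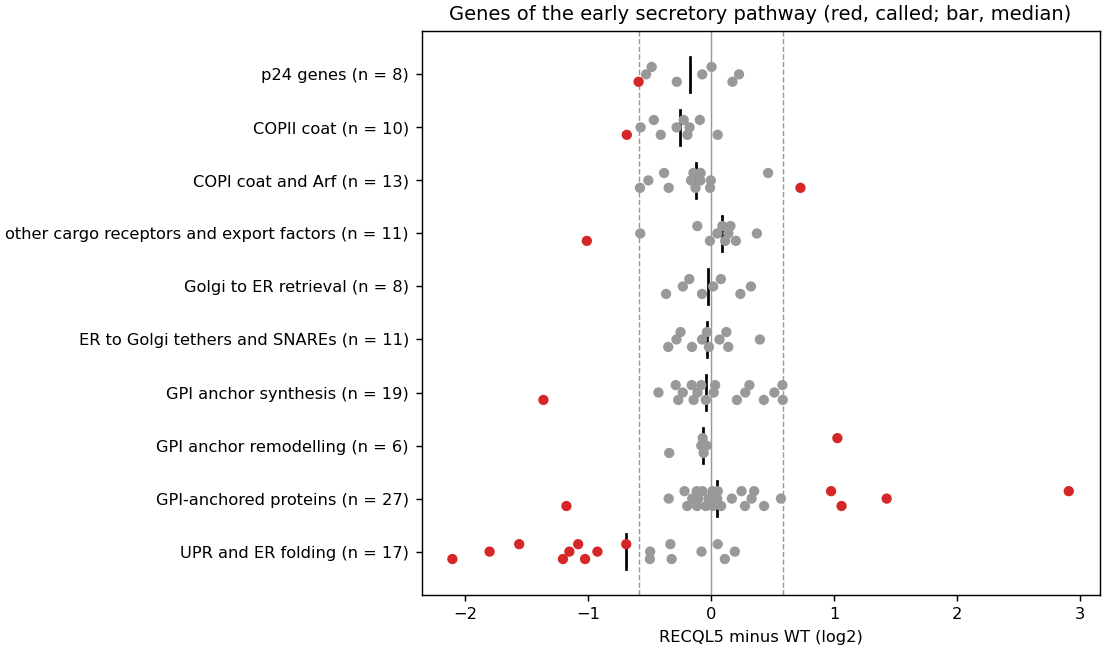
Log2 change (RECQL5 minus WT, horizontal axis) of each tested gene in the p24 family and in the 9 related lists (rows; ER, endoplasmic reticulum; UPR, unfolded protein response), with called genes in red, list medians as black bars and dashed lines at 1.5-fold. The medians run from -0.69 in the folding list to 0.09 among other cargo receptors, with -0.18 for the p24 genes.

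GPI-anchored proteins are the best known cargo of the p24 complex. Of 27 tested genes for them, 4 rose and 1 fell, beside 9.59% and 7.80% of all tested genes, and the list median was 0.05. These counts rest on few genes. The spore wall glucanosyltransferase gene *GAS2* (2.91 ± 0.25 SE), the yapsin protease gene *MKC7* (1.43 ± 0.08), the chitin transglycosylase gene *UTR2* (1.06 ± 0.08) and the mannoprotein gene *CWP1* (0.97 ± 0.17, named after its value was seen) rose. *GAS2* read 7.65 and *MKC7* 9.09 in WT, below the filter level. With the filter on every array these were not tested and 2 of 24 genes of the list rose, beside 332 of 3855 over all genes. With no filter 7 of 32 rose, beside 560 of 5449. *SPI1* (-1.18 ± 0.49), a stress-induced wall protein gene, fell as well, with RECQL5 replicate 3 at 10.90, replicates 1 and 2 at 12.14 and 12.08 and WT at 12.88. Its adjusted p was 0.0937 (limma), its change was -0.77 without replicate 3, and its call was lost without replicate 1, with no filter and with a robust trended variance. *GAS1*, the model cargo of the complex, read 13.61 in WT and 13.66, 13.64 and 13.57 in RECQL5 (0.01 ± 0.07, named after its value was seen). Its interval of -0.16 to 0.18 leaves out a 1.5-fold change, if WT varies as the RECQL5 arrays do.

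Among the genes that build the GPI anchor, 1 of 19 tested fell and 0 rose, beside 7.80% and 9.59% of all tested genes. The list median was -0.04. By the adjusted p alone 5 were lower and 7 higher, beside 29.2% and 34.6% of all tested genes. By the call rule 1 gene rose without RECQL5 replicate 2 and likewise without replicate 3. The gene that fell was *MCD4*, which encodes an ethanolamine phosphate transferase and read 11.83 in WT and 10.43, 10.59 and 10.39 in RECQL5 (-1.36 ± 0.09 SE). Anchor remodelling makes GPI proteins fit for p24 binding. Of its 6 genes, 1 rose and 0 fell (median -0.06), beside 9.59% and 7.80% of all tested genes. That gene was *BST1*, the inositol deacylase gene, whose loss is known, like that of *EMP24*, to relieve the need for Sec13. *BST1* read 9.53 in WT and 10.53, 10.53 and 10.62 in RECQL5 (1.03 ± 0.07, adjusted p = 0.000869, limma), and so lay above WT on all 3 arrays while *EMP24* lay below.

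The list of the unfolded protein response and of ER folding had the lowest median, -0.69, with 9 of 17 tested genes lower and 0 higher by the call rule, beside 7.80% and 9.59% of all tested genes. *SIL1* (-2.10 ± 0.07 SE), *ERO1* (-1.80 ± 0.07), *MPD1* (-1.56 ± 0.09) and *EUG1* (-1.20 ± 0.11) fell the most, all of them genes for folding factors of the ER lumen. All 4 genes fell further than any p24 gene. Whether the p24 genes move with this list was not tested.

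Of the 10 alternatives, 5 could move the change of a member (cyclic loess, median centring and leaving out each RECQL5 array), and the others altered only which genes were tested or the variance. The changes of the 7 genes other than *ERP6* kept their sign under those 5. *ERP1* moved between -0.55 and -0.49, *EMP24* between -0.50 and -0.48, and *ERV25* between -0.31 and -0.27, and the adjusted p of these 3 genes was at most 0.0555.

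**Figure D4:**
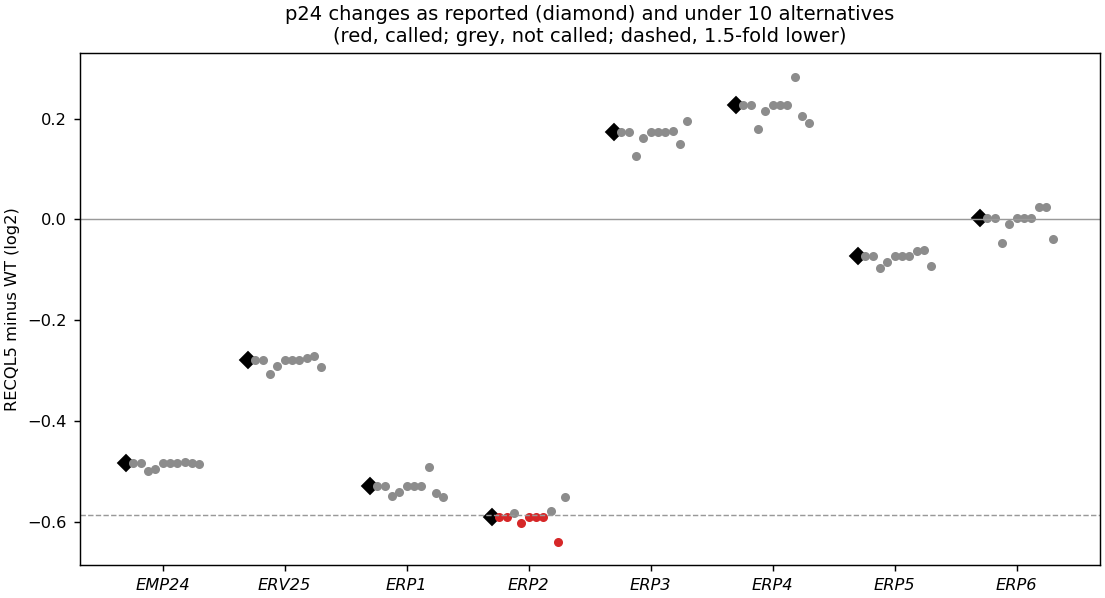
Log2 change (RECQL5 minus WT, vertical axis) of each p24 gene as reported (black diamond) and under the 10 alternatives (circles; red where called, grey where not, dashed line at 1.5-fold lower). *ERP2* crosses the limit between -0.64 and -0.55, and the circles of *ERP6* lie on both sides of 0.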

How the data were processed

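Values deposited by the authors were on the log2 scale, for each probe set of the Affymetrix yeast expression array, after RMA (background correction, quantile normalization and median polish). RMA and limma stand in the submitters' processing notes without versions. According to the methods, the control was hybridized once and standardized against published data, by a procedure not given in the sources used here, and whether the deposited WT values carry that step is not stated. Groups were taken from sample titles. The source names of RECQL5 replicates 2 and 3 carry other digits after RECQL, whereas their titles and strains name RECQL5.

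Of 10928 probe sets, 5498 were paired with 1 *S. cerevisiae* gene through the platform's probe table and the R64 gene table, which gave 5449 genes, with the brightest probe set, by its 4-array mean, standing for each gene. No coordinates are printed, since the array values name no build. RECQL5 and WT were compared in limma 3.58.1 (R 4.3.3; lmFit and eBayes, two-sided) on the 4128 genes with a mean of at least log2(600), the level the study names. The spread of each gene was estimated from RECQL5 arrays alone (2 residual degrees of freedom). eBayes then moderated it toward a value shared by all tested genes (3.4 prior degrees of freedom). Each SE, interval and p therefore also depends on the spread of other genes. Calls use thresholds that the study gives for its arrays (adjusted p of at most 0.1 by Benjamini-Hochberg, at least 1.5-fold). Another section of its methods states a stricter p limit. The study reported far fewer altered genes in each direction than the 396 higher and 322 lower called here. It also had more genes lower than higher, the reverse of the counts here. The reason for these differences was not examined. Values after ± are SE of the fit. The code was checked on simulated data in which WT was given the same spread as the RECQL5 arrays. That check says nothing about the spread of real WT cultures. The number of arrays limits the precision.

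The members and lists were chosen with earlier results of these data known. Named genes are the 8 members, the called neighbours, the 3 genes nearest to the called member with the largest change, and up to 4 called genes of each list (or 2 where none was called). The alternatives were no filter, a filter on every array, cyclic loess, median centring, leaving out shared probe sets, the mean of a gene's probe sets, a robust trended variance, and leaving out each RECQL5 array. Calls by the adjusted p alone were added after seeing the data.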

Additional observations from a re-analysis of the deposited data

How the results depend on the processing

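The count of p24 genes called lower was 1, and it was 0 after cyclic loess and between 0 and 1 when RECQL5 arrays were left out in turn. Without a fold limit it was 4, and 2 were then higher instead of 0, while the counts over all genes went from 322 to 1206 lower and from 396 to 1428 higher. The other alternatives moved no count of calls in the family or over all genes by over 1.5 times, and the median change of the family moved by less than its SD over RECQL5 arrays (0.0296). *ERP2* kept its direction and was short of the 1.5-fold limit with cyclic loess (-0.58) and without RECQL5 replicate 1 (-0.58) or 3 (-0.55), and it was -0.64 and still called without replicate 2. *ERP6*, which read at WT level, turned its sign to -0.0463 after cyclic loess, to -0.0088 after median centring and to -0.0382 without RECQL5 replicate 3 (-0.0382 to 0.0247 when arrays were left out). Over all tested genes the median change lay between -0.02 and 0.03 under these alternatives. No paired analysis was possible, since the sample titles name no pairs of WT and RECQL5 cultures. WT has 1 array, so nothing here measures the spread of WT cultures.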
